A study of Homo sapiens with 3 samples.

Results

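The acetaldehyde array of a microRNA series on MCF12A cells was set against the control array of the same series. These are 2 of its 3 arrays, with 1 array per condition, and all 2019 human microRNA probes of the array design were taken, each printed in 4 spots. MCF12A is a mammary epithelial line that is immortal but forms no tumours, grown here as a monolayer in medium with horse serum, epidermal growth factor, insulin, hydrocortisone and cholera toxin. The exposed culture had been kept for 4 weeks with acetaldehyde, which cells form when they oxidize ethanol, and the control culture was unexposed. The acetaldehyde dose is 1 mM in the sample characteristics and 1% in the treatment protocol, and the labels do not settle which holds. The third array came from cells kept with ethanol for 4 weeks (2.5 mM or 2.5%, with the same conflict). The protocol also mentions a clone selected in soft agar, which the labels tie to none of these arrays. With 1 array per condition there was no test, no p-value and no spread between cultures. Each error below is the SD over the spot positions of 1 pair of arrays, and it covers printing and reading of spots only.

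MicroRNAs are short RNAs that guide Argonaute proteins to messenger RNAs, chiefly through the seed near their 5′ end, and microRNAs of 1 seed share most of their targets. They are cut from hairpins, and several hairpins often lie on 1 primary transcript, so members of such a cluster can differ in mature level through processing or decay after transcription. The let-7 family is a textbook case of this: it accumulates as cells differentiate, represses RAS, HMGA2 and MYC messages, and its maturation is blocked by LIN28 proteins.

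The sequences below are the mature microRNAs of the sets on which the results turn, 5′ to 3′, as given in the array files and identical in RefSeq (GRCh38.p14), with the seed, bases 2 to 8, in capitals. The first set holds the let-7 guide strands, all lower on the acetaldehyde array, and shows that they differ by only a few bases outside 1 seed.
let-7c: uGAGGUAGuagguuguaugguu
let-7a-5p: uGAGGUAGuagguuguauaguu
let-7b-5p: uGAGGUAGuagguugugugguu
let-7e-5p: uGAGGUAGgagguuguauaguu
let-7f-5p: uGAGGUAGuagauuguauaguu
let-7d-5p: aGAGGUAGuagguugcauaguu
miR-98-5p: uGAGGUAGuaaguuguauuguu
let-7g-5p: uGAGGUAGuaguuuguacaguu
let-7i-5p: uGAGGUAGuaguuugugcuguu

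The second set holds microRNAs that share a primary transcript with a let-7 hairpin and lay higher than let-7 or above control on the acetaldehyde array.
miR-99a-5p: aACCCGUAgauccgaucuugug
miR-100-5p: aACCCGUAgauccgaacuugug
miR-99b-5p: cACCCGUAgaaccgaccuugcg
miR-125b-5p: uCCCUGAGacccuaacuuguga
miR-125a-5p: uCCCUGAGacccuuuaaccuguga

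The third set holds epithelial and proliferation-linked microRNAs that stood above control, with miR-92a-3p, which lay slightly below control, printed beside its cluster partners. miR-18a-5p and miR-18b-5p share 1 seed, and miR-17-5p and miR-20a-5p share another.
miR-203a: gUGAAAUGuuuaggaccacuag
miR-31-5p: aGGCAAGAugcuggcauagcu
miR-101-3p: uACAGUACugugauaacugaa
miR-17-5p: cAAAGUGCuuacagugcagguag
miR-20a-5p: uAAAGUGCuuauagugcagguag
miR-18a-5p: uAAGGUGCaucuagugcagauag
miR-18b-5p: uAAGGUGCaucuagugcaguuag
miR-19b-3p: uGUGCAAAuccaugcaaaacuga
miR-92a-3p: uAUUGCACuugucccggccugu
miR-30a-5p: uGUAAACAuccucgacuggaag
miR-30e-5p: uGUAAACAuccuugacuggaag

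The arrays differed in background. Empty spots had a median intensity of 65.8 (SD 10.97) on the acetaldehyde array and 106 (SD 13.6) on the control array. To count as detected, a probe needed a mean spot intensity more than 3 of these SDs above the empty-spot median, and 50% or more of its single spots had to pass the same level. By this measure 1430 of 2019 probes were detected on the acetaldehyde array and 775 on the control array, and 774 on both. All differences below are over these 774, unless a probe is named as detected on 1 array alone. The detection level was 146 on the control array and 98.8 on the acetaldehyde array. Dim probes thus entered by being bright enough on the control array. Of the 245 with a normalized intensity below 200 on both arrays, 14 were at least 1.5-fold lower with acetaldehyde and 0 as much higher. Shares of the 774 on the lower side carry this filter. The 656 probes detected on the acetaldehyde array alone were dim, with miR-589-5p the brightest at a normalized intensity of 202, and their number was not read as a gain of microRNAs. The probe of miR-3146 was detected on the control array alone. Dark spots, with a net signal below 50% of the median of their probe where that median passed 300, numbered 4 on the acetaldehyde array and 3 on the control array. Each dark position was left out on every array.

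Most microRNAs lay close to control. Of the 774, 649 (83.9%) were within 1.5-fold, and the median log2 difference, acetaldehyde minus control, was -0.08. The acetaldehyde array was 2-fold or more higher for 7 microRNAs (0.904% of the 774) and 2-fold or more lower for 13 (1.68%). All 20 kept their sign at every spot position. At 1.5-fold the counts were 61 higher (7.88%) and 64 lower (8.27%). Above 0 lay 43.7% and below 0 55.7%. Higher at every spot position were 27.9% of the 774, and lower at every position 37.5%, so agreement over spots alone is common and is no mark of a difference between cultures. Spot intensities before normalization, dark positions left out, lay wholly above those of the control array for 24.7% of the 774 and wholly below them for 33.2%. A normalized intensity of 500 or more on the acetaldehyde or the control array was reached by 242 microRNAs, called bright below. Of these, 16.5% were higher by 1.5-fold or more and 11.2% lower by as much. The median SD over spot positions was 0.14 for these, on the log2 scale. The split of 7 higher and 13 lower moved with the scaling of the arrays: it was 5 and 20 without normalization, 0 and 27 when scaled on the median, 23 and 14 with scaling on 5S ribosomal RNA spots and 0 and 135 with scaling on spike spots. In the authors' deposited table it was 12 (1.55%) and 17 (2.2%), which held 5 of the 7 and 12 of the 13. All 20 were at least 1.5-fold different in that table, in the same direction. Without normalization all 13 lower microRNAs were still at least 2-fold lower, and 2 of the 7 higher ones at least 2-fold higher.

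**Figure D1:**
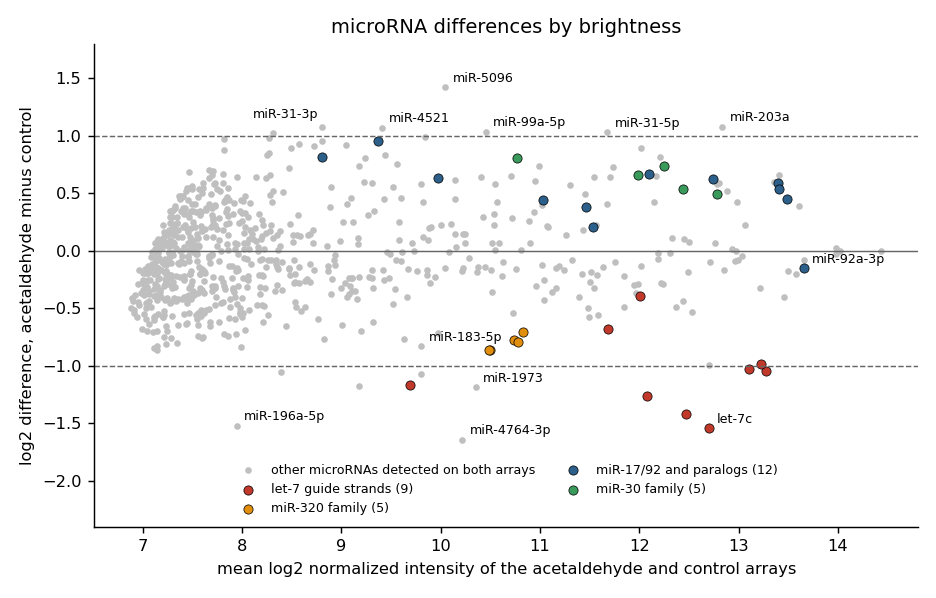
Log2 difference, acetaldehyde minus control, of the 774 microRNAs detected on both arrays against their mean log2 normalized intensity on these 2 arrays; dashed lines mark 2-fold. The 9 let-7 guide strands and the 5 miR-320 members lie below 0, and the 5 miR-30 members and 11 of 12 members of miR-17/92 and its paralogs lie above 0, which holds under quantile normalization but not under scaling on spike spots, where the medians of the last 2 groups were below 0.

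The let-7 family was lower on the acetaldehyde array in every member measured. let-7a-5p, its brightest member on the control array, had spot intensities of 5669, 5667, 6111 and 6231 on the acetaldehyde array, against 15086, 15256, 14642 and 14529 on the control array. let-7c had 4168, 4321, 4686 and 2669 on the acetaldehyde array, against 12550, 12558, 11817 and 11143 on the control array. let-7g-5p, the member that differed least, had 3397, 3381, 3679.8 and 3604 on the acetaldehyde array, against 5291, 5586, 5259 and 4931 on the control array. In all 3 the spots of the acetaldehyde array lay below every spot of the control array. After normalization let-7a-5p was 2.06-fold lower (log2 difference -1.05 ± 0.10, SD over 4 spot positions), let-7c 2.91-fold (-1.54 ± 0.31) and let-7g-5p 1.32-fold (-0.40 ± 0.12).

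The remaining members lay between. let-7e-5p differed by -1.42 ± 0.25, let-7b-5p by -1.26 ± 0.15, miR-98-5p, the least bright member of the family on both arrays, by -1.17 ± 0.19 and let-7d-5p by -1.03 ± 0.15. let-7f-5p differed by -0.98 ± 0.12 over the 3 positions left after its dark control spot was dropped, and let-7i-5p by -0.68 ± 0.10. The family median was -1.05, beside -0.08 over the 774. All 9 members were lower at every spot position, 8 of the 9 by at least 1.5-fold and 6 by at least 2-fold. Over the 774 these shares were 37.5%, 8.27% and 1.68%. Summed over the 9 members, the normalized intensity was 36775 on the acetaldehyde array and 77723 on the control array. The median kept its sign under every alternative run, between -1.99 with scaling on spike spots and -1.02 in block 2, and was -1.24 in the authors' deposited table.

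Members of the family are not independent readings, because their probes may bind each other's targets. Counted without gaps, let-7a-5p and let-7b-5p differ from let-7c at 1 base, let-7e-5p, let-7f-5p and miR-98-5p at 2, let-7d-5p and let-7g-5p at 3 and let-7i-5p at 4. The members that differed least from control, let-7g-5p and let-7i-5p, were thus among those least like let-7c, yet let-7d-5p, also 3 bases away, stood at -1.03. How far probes share signal was not tested. Of the other microRNAs with the let-7 seed on the array, miR-4458 was dim and stood at -0.57, and miR-4500 was not detected on both arrays.

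**Figure D2:**
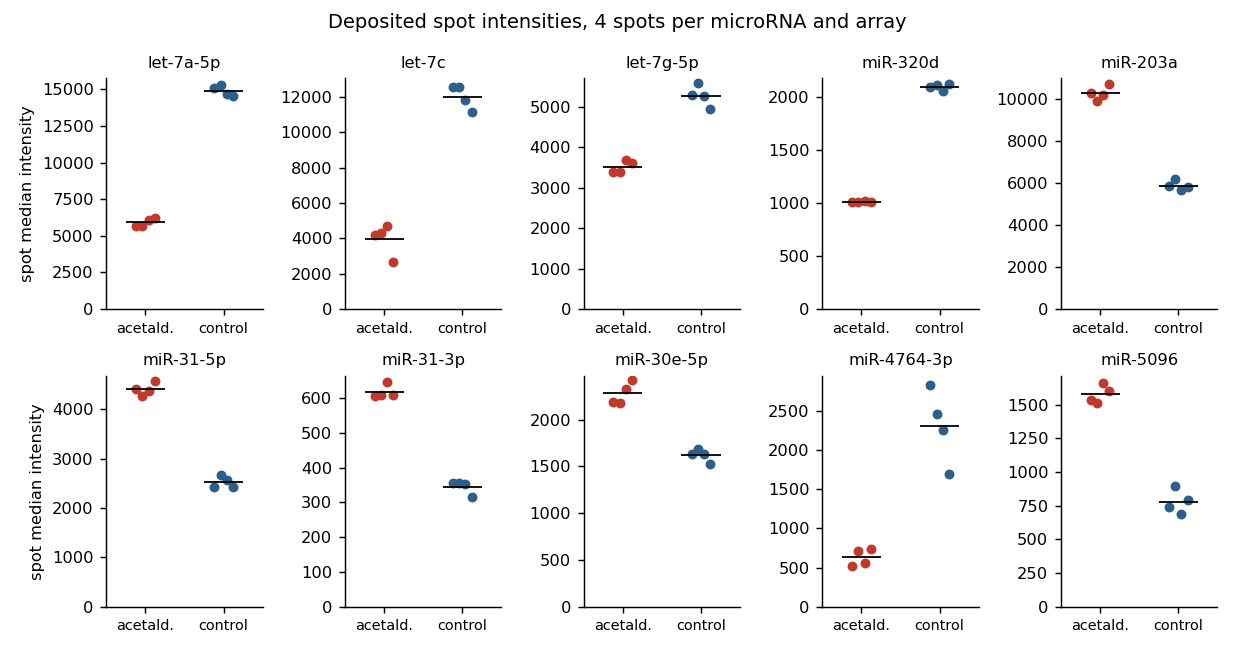
Deposited median intensity of each of the 4 spots (points) and their mean (line) for 10 microRNAs, acetaldehyde array left and control array right, linear axes from 0 with a scale of their own. The spots of the arrays do not overlap for any of these 10 chosen microRNAs. The same holds for 24.7% of the 774 on the higher side and 33.2% on the lower. The gap is wide for let-7a-5p, let-7c, miR-320d and miR-31-5p against the scatter of the spots. For miR-4764-3p it is not, as its control spots run from 1691 to 2829.8 and its highest acetaldehyde spot is 742.

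MicroRNAs that share a transcript with let-7 stood higher than it did. On chromosome 21 (GRCh38.p14, plus strand), inside the long noncoding host gene MIR99AHG, mature miR-99a-5p lies at chr21:16539101-16539122 and let-7c at chr21:16539838-16539859, with 737 bases between their starts. miR-99a-5p, which represses mTOR, had spot intensities of 1669, 2081, 1926 and 1967 on the acetaldehyde array, against 1431, 1242, 1156 and 997 on the control array. Its spots did not overlap and its log2 difference was 1.04 ± 0.32, against -1.54 ± 0.31 for let-7c. The gap between the partners was 2.58, or 5.98-fold, and it was 2.32 without normalization and 2.57 in the authors' deposited table. miR-125b-5p, a repressor of ERBB2 and ERBB3, also has a copy in this transcript and a second copy downstream of let-7a-2 on chromosome 11. Its single probe reads both copies and stood at 0.90 ± 0.12.

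The same order held for the other clusters of this make-up. On chromosome 11 miR-100-5p stood at 0.49 ± 0.28, against -1.05 ± 0.10 for let-7a-5p, which is also made from hairpins on chromosomes 9 and 22. On chromosome 19 miR-99b-5p stood at 0.07 ± 0.10 and miR-125a-5p at -0.10 ± 0.15, against -1.42 ± 0.25 for let-7e-5p, whose hairpin lies between them. In each of these pairs the lowest spot position of the partner lay above the highest position of its let-7 member. These gaps compare probes of 1 array pair, so a single scaling factor cancels in them. In clusters that hold let-7 hairpins only, the members differed by similar amounts: let-7a-5p, let-7f-5p and let-7d-5p on chromosome 9 at -1.05, -0.98 and -1.03, and miR-98-5p and let-7f-5p on the X chromosome at -1.17 and -0.98. Of 38 clusters of hairpins within 10000 bases with 2 or more microRNAs detected on both arrays, 22 had all members on 1 side of 0. Over the 774, 43.7% lay above 0 and 55.7% below, so unrelated probes would often fall on 1 side too. Some probes, such as let-7a-5p, enter more than 1 cluster, and the 22 are not read as a property of clusters. Among the 23 clusters with at least 2 bright members, the median range within a cluster was 0.59, and 4 clusters spanned over 1. Of these 4, those with let-7c, let-7a-2 and let-7e were 3 and the miR-17/92 cluster was the other. The clusters so built did not hold every hairpin: miR-183, miR-93 and miR-20b were missing from theirs. miR-183-5p stood at -0.83 and its partner miR-96-5p at 0.80, so with miR-183 that cluster would span over 1 too. The counts and the median range hold for the clusters as built.

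**Figure D3:**
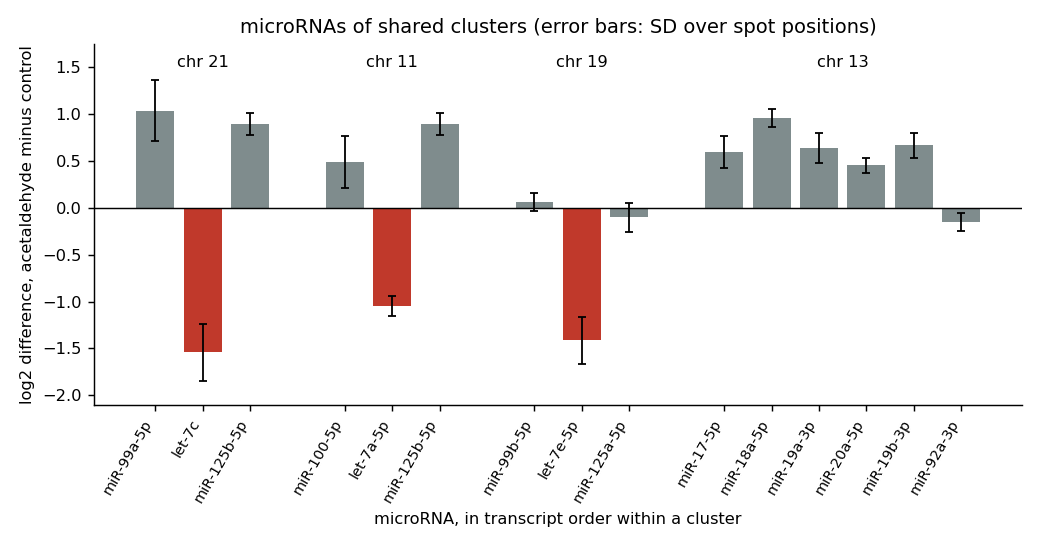
Log2 difference, acetaldehyde minus control, for microRNAs of 4 clusters in transcript order; bars are means over spot positions, error bars the SD over positions, let-7 members in red. let-7c, let-7a-5p and let-7e-5p stand below 0 beside partners near or above 0, and miR-92a-3p lies below the 5 other members of its cluster; with scaling on spike spots all bars shift down and most of the positive ones fall below 0. miR-125b-5p is 1 probe drawn in 2 clusters.

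The passenger strands of let-7, the arms that are mostly discarded, gave a weaker reading. This list was added after values had been seen. Of 10 passenger arms 7 were detected on both arrays, all but let-7d-3p dim, with a median of -0.31, and none reached 1.5-fold. The arms detected on the acetaldehyde array alone, let-7g-3p, let-7i-3p and let-7e-3p, went the other way. They were dim and higher at every spot position, at 0.52 ± 0.19, 0.28 ± 0.25 and 0.25 ± 0.18, and are not in that median. let-7d-3p, the bright one, had 641, 637, 712 and 683 on the acetaldehyde array, against 1050.3, 1191, 1186 and 1127 on the control array, a difference of -0.40 ± 0.09 beside -1.03 ± 0.15 for its guide strand. With scaling on 5S spots the median of the 7 arms detected on both arrays was above 0, at 0.10.

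The miR-320 family was lower in every member too. It is known for hairpins that bypass Drosha cleavage, at least for miR-320a, and miR-320a to miR-320d carry 1 seed, AAAGCUG. miR-320d had 1008, 1009.5, 1016 and 1008 on the acetaldehyde array, against 2089.8, 2114, 2056 and 2118 on the control array, and miR-320e had 931, 1004, 1001 and 1023 on the acetaldehyde array, against 2122, 2089, 2034 and 2092 on the control array. Neither overlapped between the arrays, and the spots of miR-320d scattered less than those of most probes. The differences were -0.86 ± 0.08 for miR-320e, -0.86 ± 0.02 for miR-320d, -0.79 ± 0.10 for miR-320c, -0.78 ± 0.05 for miR-320b and -0.70 ± 0.10 for miR-320a. The median was -0.79 over 5 of 5 members, all at least 1.5-fold lower and lower at every position, beside 8.27% and 37.5% of the 774. This median ranged from -1.62 to -0.60 over the alternatives, the upper value being that of the authors' deposited table. miR-4429, which carries the same seed, was lower as well, and the median of the seed group of 5 was -0.78. These members are near-identical in sequence, so their probes may read 1 pool of RNA.

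Lower outside these families stood several microRNAs with no close relative among them. miR-4764-3p, the lowest of the 774, had 516, 708, 565 and 742 on the acetaldehyde array, against 2829.8, 2465, 2259 and 1691 on the control array and a difference of -1.64 ± 0.52. Its spots did not overlap between arrays but scattered more than those of most probes. miR-4651 stood at -1.18 ± 0.16, miR-1587 at -1.17 ± 0.29 and miR-4481 at -1.07 ± 0.15. Over all alternatives these 4 stayed at least 2-fold lower. miR-574-3p had 4108, 4614, 4564 and 4518 on the acetaldehyde array, against 10688, 11061, 10563 and 8021 on the control array, a difference of -0.99 ± 0.24, and miR-574-5p, the other arm of its hairpin, stood at -0.56 ± 0.09.

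Among entries that overlap other small RNAs, miR-1973 was the lowest. Its sequence matches a mitochondrial RNA, and its spots read 786, 837, 806 and 992 on the acetaldehyde array, against 2038, 2209.8, 2105 and 2100.5 on the control array, a difference of -1.18 ± 0.15. Of 14 such entries 10 were detected on both arrays, with a median of -0.34, which was -0.08 with scaling on 5S spots. Below 0 were 7, beside 55.7% of the 774, and above 0 were 3. Past 1.5-fold were 2 on the lower side, beside 8.27% of the 774, and 1 on the higher. The tRNA-related miR-1260a stood at -0.65 ± 0.19 over 3 positions and miR-1260b at -0.53 ± 0.22. The U2-related miR-1246 stood at -0.49 ± 0.21 and the tRNA-related miR-4454 at -0.33 ± 0.06, whereas miR-3607-5p, which overlaps a small nucleolar RNA, stood at 0.65 ± 0.17. The probes cannot tell such entries from fragments of their parent RNAs.

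Of the microRNAs of the HOX gene clusters, miR-196a-5p, which cleaves HOXB8 messages, was lower. It was dim, at 191, 152, 175 and 171 on the acetaldehyde array, against 504, 481, 527 and 428 on the control array, without overlap, and differed by -1.52 ± 0.16. miR-196b-5p stood at -0.58 ± 0.11 and miR-10b-5p at -0.08 ± 0.30. miR-10a-5p stood at 0.52 ± 1.05, with 1 low control spot at 112 that missed the dark rule, so its direction is unsettled. The median of the 4 was -0.33, and 0.04 with scaling on 5S spots.

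miR-203a and both arms of the miR-31 hairpin were higher on the acetaldehyde array. miR-203a, which represses p63 as keratinocytes leave the cell cycle, had 10256, 9874, 10174 and 10717 on the acetaldehyde array, against 5835, 6195, 5646 and 5803 on the control array. miR-31-5p, abundant in basal epithelium and a repressor of metastasis genes in breast cancer models, had 4399.8, 4265, 4371 and 4561 on the acetaldehyde array, against 2434, 2660.5, 2575 and 2434 on the control array. miR-31-3p, the other arm of the miR-31 hairpin, had 604, 608, 646 and 609 on the acetaldehyde array, against 356, 356, 353 and 315 on the control array. For all 3 the lowest acetaldehyde spot exceeded the highest control spot. miR-203a was 2.11-fold higher (1.08 ± 0.09), miR-31-5p 2.04-fold (1.03 ± 0.10) and miR-31-3p 2.11-fold (1.08 ± 0.09), and without normalization they stood at 0.81, 0.81 and 0.92. With scaling on spike spots the 3 differences were smaller and still above 0. Over the epithelial and basal marker list that holds miR-203a and miR-31-5p, 6 of the 9 members detected on both arrays lay above 0 and 2 below, with 4 at least 1.5-fold higher. Of the 774, 43.7% lay above 0, 55.7% below and 7.88% at least 1.5-fold higher. The list median was 0.43, but 0.18 in the authors' deposited table and -0.26 with scaling on spike spots. miR-205-5p, held at 0.00 by its first rank on both arrays, stood at 0.34 without normalization, while miR-200c-3p stood at -0.09 ± 0.10 and miR-200b-3p at -0.29 ± 0.35.

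Further microRNAs stood near or past 2-fold on the higher side. miR-5096, whose role is not settled, had 1537, 1509, 1662 and 1599.9 on the acetaldehyde array, against 743, 896, 689 and 789 on the control array and led the higher side at 1.42 ± 0.22. miR-4521 had 822, 919.5, 1001 and 1016 on the acetaldehyde array, against 502, 538, 581 and 557 on the control array, a difference of 1.07 ± 0.06. Neither overlapped between arrays. miR-101-3p, a repressor of EZH2, stood at 0.99 ± 0.10, miR-940 at 0.96 ± 0.11, miR-1281 at 0.93 ± 0.16 and miR-3065-5p at 0.91 ± 0.12. miR-24-2-5p, which reached 2-fold at 1.03, was dim and its positions scattered by an SD of 0.83. It was named because it is 1 of the 7.

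The miR-17/92 cluster and its paralogs, MYC-induced microRNAs that promote the G1 to S transition and restrain apoptosis, stood above control in 11 of 12 detected members under quantile normalization, with a median of 0.57, which was -0.24 with scaling on spike spots beside -0.56 for the 774. miR-20a-5p had 13265, 13246, 13588 and 13929 on the acetaldehyde array, against 10101, 10439, 10535 and 9743 on the control array. miR-18a-5p, a repressor of the estrogen receptor message, had 839.6, 853, 942 and 919.7 on the acetaldehyde array, against 556, 513, 624 and 541 on the control array. Both were brighter in every spot of the acetaldehyde array. miR-18a-5p stood at 0.96 ± 0.09 and its X-linked paralog miR-18b-5p at 0.82 ± 0.19. miR-19b-3p stood at 0.67 ± 0.14 over 3 positions, its dark control spot left out, and miR-19a-3p at 0.64 ± 0.16.

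In this list the members of 1 seed, AAAGUGC, lay close together. So did those of some seeds outside the list, such as AAAGCUG of miR-320a to miR-320d and miR-4429, from -0.86 to -0.70. Others spread widely, such as AGCAGCA of the miR-15/16 family, from -0.42 to 0.83. The 6 microRNAs with the seed AAAGUGC lay between 0.38 (miR-93-5p) and 0.63 (miR-20b-5p), with miR-17-5p at 0.59 ± 0.17, miR-106a-5p at 0.54 ± 0.12, miR-20a-5p at 0.45 ± 0.08 and miR-106b-5p at 0.44 ± 0.23. Members with the seed AUUGCAC lay lower in the same clusters: miR-92a-3p stood at -0.15 ± 0.10 and miR-25-3p at 0.21 ± 0.26. miR-92a-3p had 11388, 12809, 11867 and 11829 on the acetaldehyde array, against 14217, 13690, 14045 and 13392 on the control array, so its acetaldehyde spots all lay below its control spots while those of miR-20a-5p, from the same transcript, all lay above. Of the 12 members 6 were at least 1.5-fold higher, beside 7.88% of the 774, and none reached 2-fold. miR-363-3p, also in this list, was not detected on both arrays.

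**Figure D4:**
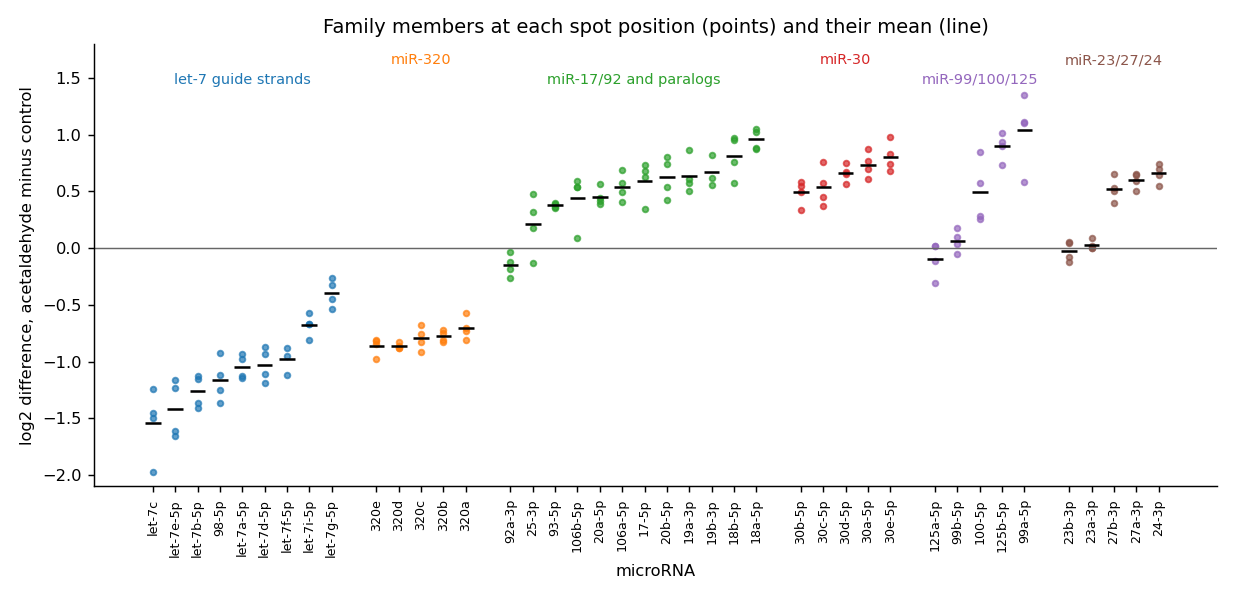
Log2 difference, acetaldehyde minus control, of each detected family member at each spot position (points) and its mean (line), members ordered by difference within a family. Every let-7 and miR-320 point lies below 0 and every miR-30 point above 0; with scaling on spike spots the medians of the miR-17/92, miR-30, miR-99 to miR-125 and miR-23/27/24 groups fall below 0.

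The miR-30 family, which supports epithelial identity by repressing SNAI1, stood above control in 5 of 5 members at every position under quantile normalization, with a median of 0.66 that was -0.31 with scaling on spike spots. miR-30e-5p had 2192, 2180, 2332 and 2421 on the acetaldehyde array, against 1632, 1692, 1632 and 1528 on the control array, and miR-30a-5p had 4918, 5183, 5477 and 5555 on the acetaldehyde array, against 4162, 4655, 4409.6 and 4159.6 on the control array. The spots of both were higher throughout on the acetaldehyde array. miR-30e-5p differed by 0.81 ± 0.13, miR-30a-5p by 0.74 ± 0.11, miR-30d-5p by 0.66 ± 0.08, miR-30c-5p by 0.54 ± 0.17 and miR-30b-5p by 0.49 ± 0.11. At least 1.5-fold higher were 3 of the 5, beside 7.88% of the 774. miR-30a-5p and miR-30e-5p are near-identical in sequence, so their probes may share signal. The median was 0.32 without normalization and 0.47 in the authors' deposited table, so its size rests on the scaling.

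Other families also had members above control, all of them with a median below 0 when scaled on spike spots. miR-103 and miR-107, which repress Dicer, form a family with miR-103a-3p at 0.73 ± 0.05 and miR-107 at 0.64 ± 0.08. Their sequences are near-identical too, so their probes may share signal. Over the miR-23/27/24 clusters the median was 0.52, with miR-24-3p at 0.66 ± 0.09, miR-27a-3p at 0.60 ± 0.07 and miR-27b-3p at 0.52 ± 0.10. Their partners miR-23a-3p and miR-23b-3p, among the brightest probes, stood at 0.03 ± 0.04 and -0.03 ± 0.09. Values at that end are held near 0 by rank: without normalization miR-23a-3p stood at 0.41.

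The miR-29 family, which represses collagens and DNA methyltransferases, had a median of 0.40 over 3 members (-0.35 with scaling on spike spots), led by miR-29c-3p at 0.81 ± 0.32. The miR-148 family, which represses DNMT1 and was listed after values had been seen, had a median of 0.58 over 3 members (-0.38 with scaling on spike spots). miR-222-3p and miR-221-3p, repressors of the cell cycle inhibitor p27, stood at 0.59 ± 0.04 and, over 3 positions, 0.43 ± 0.06. miR-26a-5p, a further repressor of EZH2, stood at 0.58 ± 0.08 and miR-26b-5p at 0.14 ± 0.12.

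Several families were mixed. In the miR-183 cluster miR-96-5p, which represses FOXO factors, stood at 0.80 ± 0.22, miR-182-5p at 0.22 ± 0.17 and miR-183-5p at -0.83 ± 0.11, although the 3 share a primary transcript. miR-183-5p had 577, 607, 640 and 665 on the acetaldehyde array, against 1486, 1471, 1464 and 1419.8 on the control array, and miR-96-5p had 746, 797, 769 and 785 on the acetaldehyde array, against 625, 495, 550.1 and 474 on the control array. The spots of both arrays were apart for each, in opposite directions. In the miR-200 family, which represses ZEB1 and ZEB2, miR-141-3p stood at 0.74 ± 0.09 beside -0.09 ± 0.10 for miR-200c-3p of the same cluster, and miR-200b-3p at -0.29 ± 0.35, for a median of 0.00. In the miR-15/16 family, which represses cyclins, miR-424-5p stood at 0.83 ± 0.08 over 3 positions and miR-497-5p at -0.42 ± 0.16, with a median of 0.15. The miR-181 family had a median of 0.15, with no member past 1.5-fold. The signs of these last 2 medians turned without normalization.

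Of the p53-induced microRNAs, 7 of 9 were detected on both arrays, with a median of 0.34 that was -0.11 with scaling on spike spots. miR-194-5p had 433, 406, 465 and 518 on the acetaldehyde array, against 226, 257, 245 and 219 on the control array, and miR-192-5p, from the same cluster on chromosome 11, had 440.3, 404, 428 and 479 on the acetaldehyde array, against 239, 261, 227 and 257 on the control array. Both were dim and without overlap, at 0.99 ± 0.24 and 0.85 ± 0.14. miR-34a-5p, the member most directly induced by p53, stood at 0.24 ± 0.18 over 3 positions, and miR-34c-5p at -0.39 ± 0.12. Of the 7, 5 lay above 0, beside 43.7% of the 774, and 3 were at least 1.5-fold higher, beside 7.88% of the 774. Stress, hypoxia and inflammation microRNAs had a median of 0.21 over 8 of 10, with miR-22-3p at 0.64 ± 0.04 over 3 positions, the hypoxia-induced miR-210 at 0.45 ± 0.13 and miR-155-5p at -0.35 ± 0.25. MicroRNAs counted as promoting breast cancer had a median of 0.32 over 8 of 10 and those counted as restraining it 0.22 over 10 of 12, so both lay on the same side of 0. Each of these medians fell below 0 with scaling on spike spots.

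The arms of a hairpin were also compared in direction. Of 130 pairs of arms with both detected on both arrays, 61 had arms of the same sign. Over the 774, 43.7% lay above 0 and 55.7% below, so unrelated probes would often differ in sign too. The 61 are therefore not read as a property of hairpins. None of the counts of pairs given here was set against unrelated probes. An arm made from several hairpins, such as let-7a-5p, can enter more than 1 pair. The 6 with both arms bright were all of the same sign, miR-31, miR-574, let-7d, miR-335, miR-151a and miR-3607. Of the 25 pairs whose brighter arm differed by at least 1.5-fold, the other arm had the same sign in 16 and reached 1.5-fold the same way in 2. The weaker arm was dim in most pairs, and dim differences are compressed by the offset added before log2.

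Both arrays carried the markers of basal mammary epithelium. miR-205-5p, a marker of basal epithelium, was the brightest probe on both arrays. Of 10 epithelial and basal markers, 10 were detected on the acetaldehyde array and 9 on the control array. Beside these counts, 1430 of all 2019 probes were detected on the acetaldehyde array and 775 on the control array. The summed normalized intensity of the epithelial and basal markers was 69818 on the acetaldehyde array and 56669 on the control array. Of 7 blood cell and serum markers, 3 were detected on the acetaldehyde array and none on the control array, with summed intensities of 716 on the acetaldehyde array and 672 on the control array, near the level of undetected probes. Of 7 mesenchymal markers, 6 were detected on the acetaldehyde array and 2 on the control array, with sums of 1082 on the acetaldehyde array and 1102 on the control array, and the liver marker miR-122-5p was detected on neither. More probes of any kind were detected on the acetaldehyde array. The blood cell and mesenchymal counts were therefore not read as a gain of other cell types. The muscle marker miR-206 was dim and detected on both arrays at -0.21 ± 0.25, and the neural marker miR-128, just bright on the control array, at -0.12 ± 0.25. miR-126-3p, known from endothelium, was brighter, with 662, 687, 715 and 711 on the acetaldehyde array, against 434, 476, 454 and 426 on the control array and a difference of 0.92 ± 0.09, while miR-126-5p, the other arm, was detected on neither array. The part of other cell types in these values was not tested.

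The ethanol array shares the control array with this comparison, so values of the exposures are given side by side and no overlap is read from them. The let-7 median was -1.05 with acetaldehyde and -0.03 with ethanol, each against control, and the miR-320 median -0.79 with acetaldehyde and 0.00 with ethanol. miR-203a stood at 1.08 with acetaldehyde and -0.49 with ethanol, miR-31-5p at 1.03 and 0.09, and miR-5096 at 1.42 and 0.43. miR-4764-3p stood at -1.64 with acetaldehyde and -0.76 with ethanol, and miR-574-3p at -0.99 and -0.84. The gap between miR-99a-5p and let-7c was 2.58 with acetaldehyde and 0.43 with ethanol. The doses of the exposures differ, and the difference between them was not tested.

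**Figure D5:**
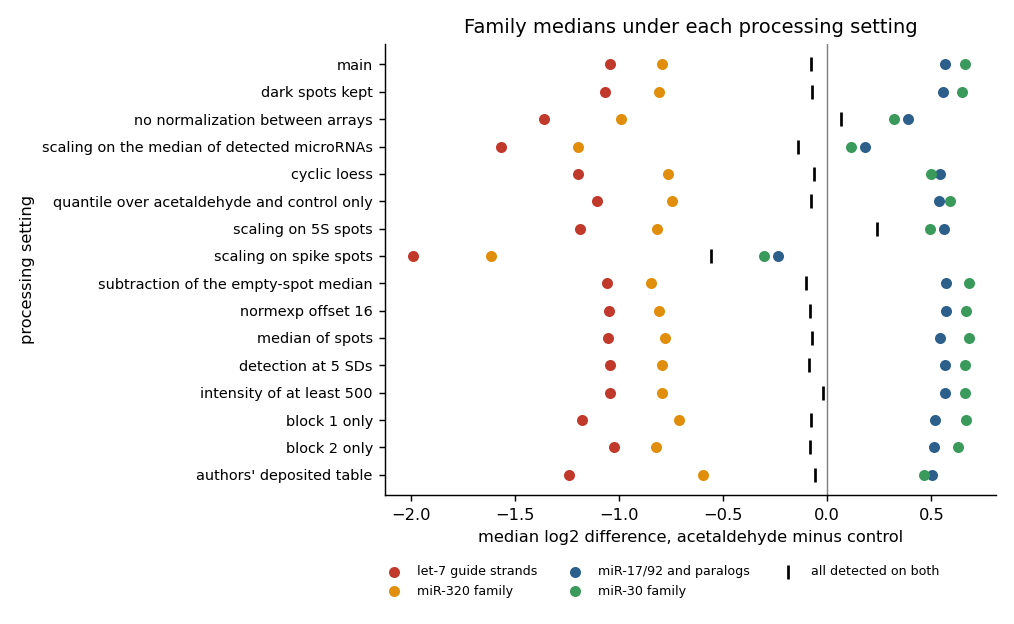
Median log2 difference, acetaldehyde minus control, of 4 families and of all microRNAs detected on both arrays (vertical marks) under each processing setting, from the main setting at the top to the authors' deposited table at the bottom. The let-7 and miR-320 medians lie below 0 and below the mark of all microRNAs in every setting; the miR-17/92 and miR-30 medians lie above that mark in every setting but fall below 0 with scaling on spike spots.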

How the data were processed

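MicroRNAs were read on 1-colour arrays of a commercial service from 2 µg of total RNA, poly(A) tailed and tagged for Cy5 staining, per the labels' protocols. The deposited per-array files hold the median intensity of each spot, neither background-subtracted nor normalized, as the file headers and the brightness of empty spots show. The authors' deposited table holds normalized intensities on a linear scale, 1 for each probe on each array. How it was normalized is not given in the sources used here. That table served as a second reading as log2(value + 50). The number of arrays, 1 per group, limits the precision.

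Background was corrected with normexp (offset 50, all spots) in limma 3.58.1 under R 4.3.3. Values were taken to log2, dark positions were dropped, each probe's spots were averaged, and the 3 arrays, ethanol included, were quantile normalized over 2019 probes. Further steps used Python 3.11.15, NumPy 2.4.6 and pandas 2.3.3, and figures matplotlib 3.10.9. Functions were tested on simulated data. A difference is acetaldehyde minus control, and its SD is over spot positions. A family is given by the median of its members detected on both arrays.

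The microRNAs named were up to 15 per direction with at least 1.5-fold difference, a normalized intensity of at least 500 on 1 array and 1 sign at every position; members of the families and lists; other arms of the hairpins so named; the 10 brightest of the acetaldehyde array; let-7 cluster partners; and seed groups of at least 3 detected members. miR-4429, miR-4458 and miR-4500 entered through the seeds; miR-24-2-5p, miR-3146 and miR-589-5p were named after their values were seen. Members and lists were chosen with earlier results of these data known. Positions and clusters came from RefSeq (GRCh38.p14), where 1795 of 2019 probes matched by name or sequence. Alternatives covered dark spots, background, scaling, averaging, detection, blocks and the authors' deposited table.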

Additional observations from a re-analysis of the deposited data

How the results depend on the processing

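No paired analysis was possible because each condition had 1 array. Nothing here has a replicate check, and a difference between cultures cannot be told apart from one between arrays. Main values were 7 higher and 13 lower at 2-fold, and medians of -1.05 for let-7, 0.57 for miR-17/92 and 0.66 for miR-30. The counts were 5 higher and 20 lower when arrays were not normalized, 0 and 27 when scaled on the median microRNA, 23 and 14 with scaling on 5S spots, 0 and 135 with scaling on spike spots, 48 and 65 with the empty-spot median subtracted, 14 and 18 with a normexp offset of 16, and 12 and 17 in the authors' deposited table. The let-7 median was -1.36 without normalization, -1.57 scaled on the median, -1.99 scaled on spikes and -1.24 in the deposited table. The miR-17/92 median was 0.39 without normalization, 0.18 scaled on the median and -0.24 scaled on spikes. The miR-30 median was 0.32 without normalization, 0.12 scaled on the median, 0.50 with cyclic loess, 0.49 scaled on 5S spots, -0.31 scaled on spikes and 0.47 in the deposited table. The cause was not tested, beyond the control spots themselves: before normalization 34 of 36 detected spikes were brighter on the acetaldehyde array, by a median of 0.63, and the 5S probes differed by a mean of -0.17. Scaling moved the median of all 774 microRNAs to -0.56 with spikes and 0.24 with 5S spots, so families are best read against that median.

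Of 127 named microRNAs, 21 changed sign after being at least 1.5-fold different, all with scaling on spike spots. There miR-148b-3p stood at -0.38, miR-30a-5p at -0.34, miR-3607-5p at -0.33, miR-19b-3p at -0.30, miR-30d-5p at -0.29, miR-29c-3p and miR-222-3p at -0.26, miR-19a-3p at -0.23, miR-17-5p at -0.21, miR-20b-5p and miR-27a-3p at -0.19, miR-335-5p at -0.15, miR-30e-5p at -0.12, miR-24-3p and miR-107 at -0.11, miR-141-3p at -0.092, miR-103a-3p at -0.078, miR-22-3p at -0.066, miR-125b-5p at -0.053, miR-96-5p at -0.035 and miR-424-5p at -0.032, and the median of miR-103a-3p and miR-107 at -0.10. Signal over background limits the dim probes, whose differences read small.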

Other observations

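G content moved with the differences. Across the 242 bright microRNAs Spearman's rho between the G content of the target and the difference was -0.26, a description over probes of 1 array pair that share hybridization and labelling. Bright microRNAs with under 20% G had a median of 0.03 (55 probes), those with 20% to 30% a median of 0.44 (51 probes), those with 30% to 40% G a median of 0.07 (30 probes), those with 40% to 50% G a median of -0.25 (31 probes) and those with 50% or more a median of -0.14 (75 probes). Of the 9 let-7 guide strands, let-7b-5p, let-7c and let-7e-5p have 40% to 50% G and the other 6 have 30% to 40%. The part of base content in the family values was not tested.

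The word AGGUAG, the core of the let-7 seed, was looked up in other microRNAs after let-7 values had been seen. Outside the let-7 seed 10 microRNAs that hold it were detected on both arrays, with a median of -0.04, 5 below 0 and 5 above. Those below were miR-196a-5p at -1.52, miR-1973 at -1.18, miR-3682-3p at -0.68, miR-196b-5p at -0.58 and miR-6509-5p at -0.46. Those above were miR-17-5p, miR-20a-5p, miR-20b-5p, miR-93-5p and miR-106a-5p, which carry the word at their 3′ end.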
